A study of Mus musculus with 16 samples.

Results

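The comparison described here is the deletion of Foxp1 in mouse cortex at postnatal day 7 (P7), seen across all genes that could be tested. It takes 8 of the 16 libraries of the series, 4 from conditional knockout (cKO) mice and 4 from control mice. Of the 20841 genes in the table, 12828 reached a CPM (read count scaled to a common library size) of at least 1 in at least 4 of these 8 libraries and were tested. The groups were P7 cKO and P7 control, and newborn (P0) cKO and P0 control, with 4 libraries each, serve as a second set of values beside them. All libraries came from polyadenylated RNA of right-hemisphere cortex. The deletion is described as forebrain-specific. The labels name neither the driver of the recombinase nor the cells in which it acts, and they do not spell out the alleles of the control mice. The labels do not say whether the libraries of a group came from separate animals, so p-values measure the spread between these libraries, which may be technical.

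Foxp1 is a forkhead transcription factor that acts mainly as a repressor and is made by many projection neurons of the developing cortex. Loss of one functional copy in humans leads to intellectual disability with speech and language delay. In the first postnatal week of the mouse, cortical layers have formed, thalamic axons are sorting within layer 4, and neurons are building the channels, receptors and synapses that they will use later. Layer 4 neurons are defined in part by the nuclear receptors RORβ and RORα, which are needed for the clustering of these neurons around thalamic afferents.

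Recovered read totals lay between 9858296 and 15335738 per P7 library. Foxp1 itself (chromosome 6, 98925338 to 99522721, minus strand) had 246, 219.9, 162 and 241 CPM in the cKO libraries 41, 42, 44 and 48, and 539, 375, 399 and 462 CPM in the control libraries 43, 45, 46 and 47, and values below follow this order. The cKO mean was 48.9% of the control mean, a log2 fold change of -1.03 (SE 0.12, limma adjusted p = 0.000164). The table has 1 value for the whole gene, so reads of the deleted part were not separated from the rest, and the predicted gene Gm20696 overlaps Foxp1 on the same strand. The first principal component of the 8 libraries held 25.7% of the variance and ran from 6.34 to 12.1 in cKO and from -13.3 to -6.95 in control libraries. The second held 22.1% and set cKO libraries 41 and 42 (10.8 and 10.4) apart from cKO libraries 44 and 48 (-7.63 and -18.1). Markers of striatal neurons, which lie below the cortex, varied with the library. Their summed level was 809, 613, 490.2 and 688 CPM in cKO cortex, against 942, 432, 428 and 447 CPM in control cortex, so that control library 43 stood above all others. Of the 15 tested striatal markers 0 passed by limma, edgeR or DESeq2. At an unadjusted p under 0.05 by limma there were 4, beside 1831 of all 12828 tested genes. Once control library 43 was left out, 8 were called higher, beside 167 of all 12748 genes tested in that fit.

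Deletion of Foxp1 was accompanied by many small changes and a few large ones. Of the 12828 genes, 477 (3.72%) passed limma's test at an adjusted p under 0.05, with 214 (1.67%) higher and 263 (2.05%) lower in cKO cortex. The median log2 fold change was 0.39 for the higher and -0.39 for the lower genes, and 316 of the 477 (66.2%) changed by less than 0.5. Above 1 there were 6 genes and below -1 there were 12. In 453 of the 477 genes all cKO values lay on one side of all control values, while such a separation was seen in 1139 of all tested genes (8.88%). The calls were made on these same values, so separation among called genes largely follows from the call and is no separate evidence. Leaving out control library 46 lowered the number of calls to 281, fitting all 16 libraries at once to 175, and adding the striatal marker level as a covariate to 345. Scaling by medians of ratios gave 155 higher and 305 lower genes. The numbers were 162 higher and 301 lower by edgeR, and 215 higher and 389 lower by DESeq2.

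**Figure D1:**
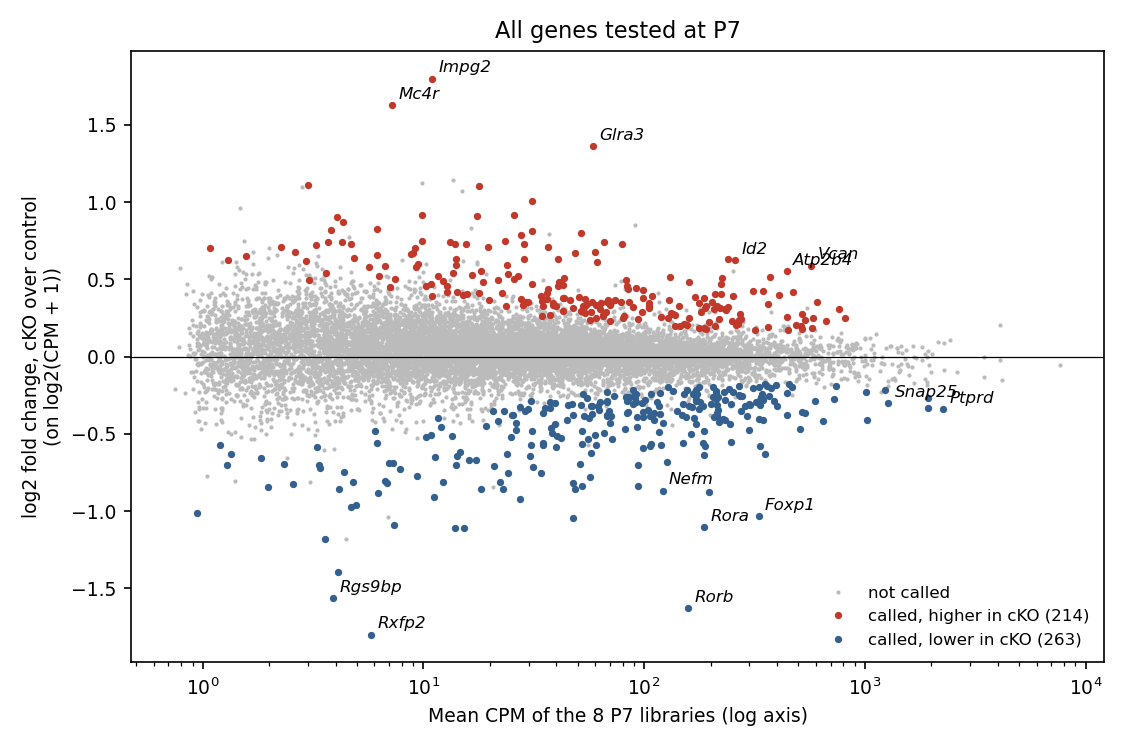
Log2 fold change at P7 (cKO over control, on log2(CPM + 1), vertical axis) against the mean CPM of the 8 libraries (log axis), 1 point per tested gene, with the 214 higher and 263 lower genes coloured. Most called genes lie within 0.5 of 0, and Rorb, Rora and Foxp1 stand out among well expressed genes.

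Among the lists of layer genes, that of layer 4 neurons had the most lower members. Rorb (chromosome 19, 18930605 to 19111196, minus strand), which encodes RORβ, had 82.8, 76.2, 82.2 and 67.9 CPM in cKO cortex and 261, 245, 224 and 232 CPM in control cortex, a log2 fold change of -1.63 (SE 0.07, limma adjusted p = 4.82e-09). Rora (chromosome 9, 68653786 to 69388246, plus strand), which encodes RORα, had 112, 126, 123 and 113 CPM in cKO cortex and 250.4, 259.5, 259 and 255 CPM in control cortex, a log2 fold change of -1.10 (SE 0.05, limma adjusted p = 8.63e-09). For both genes each cKO library was below 130 CPM and each control library above 220 CPM. Of 15 listed layer 4 genes, 7 (46.7%) fell and 0 rose, beside 2.05% lower among all tested genes, with a median log2 fold change of -0.42 against 0.03 over all tested genes. Beside the ROR genes these were the potassium channel gene Kcnh5, the cortisone-activating enzyme gene Hsd11b1, the scaffold gene Whrn, and Sema7a and Plxnd1 of the semaphorin system. The summed level of the list was 669 to 834 CPM in cKO libraries and 1154 to 1285 CPM in control libraries. In whole tissue, fewer layer 4 cells and less of these RNAs per cell cannot be told apart. Not every layer 4 gene fell, and 2 of the 15 had a positive log2 fold change, up to 0.57. Scnn1a, a sodium channel subunit gene used to mark layer 4, had 2.28, 1.85, 2.36 and 3.35 CPM in cKO cortex and 1.67, 2.39, 1.62 and 1.52 CPM in control cortex (limma adjusted p = 0.462). Unc5d, a netrin receptor gene of layer 4, had 168, 199, 277 and 183 CPM in cKO cortex and 259, 292, 286 and 254 CPM in control cortex and just missed the threshold (limma adjusted p = 0.0543). The call of Sema7a was lost when any of 5 single libraries was left out (adjusted p up to 0.0713), while 6 to 9 layer 4 genes were called lower under every alternative run. With edgeR, without a filter, and with 0.1 or 0.5 added to the CPM instead of 1, 1 layer 4 gene was called higher.

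**Figure D2:**
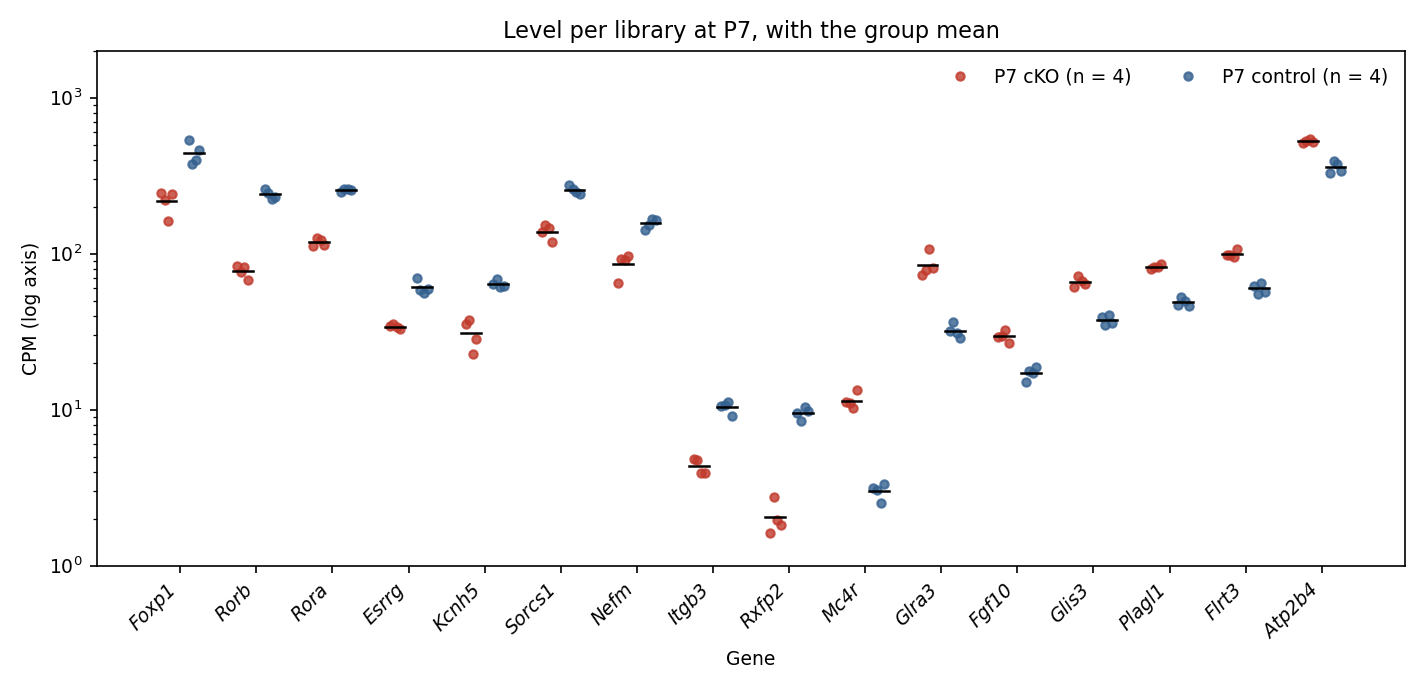
CPM (log axis) of 16 genes in each P7 library, cKO in red and control in blue (n = 4 each), with a black bar for the group mean. Foxp1, Rorb, Rora, Esrrg, Kcnh5, Sorcs1, Nefm, Itgb3 and Rxfp2 were lower in every cKO library than in any control library, and the other 7 genes were higher.

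Genes of the other layers changed in both directions. Beside 3.72% of all tested genes, 26.3% of upper-layer, 16.7% of deep-layer and 27.3% of subplate genes passed, in lists that were chosen with earlier results known. Of 19 upper-layer genes, 4 rose and 1 fell. Cdh13, a cadherin without an intracellular domain, rose, with 444, 385, 374 and 379 CPM in cKO cortex and 286, 316, 294 and 279 CPM in control cortex, and so did Bhlhe22, a transcription factor gene of area and projection identity, with a log2 fold change of 0.51. Lhx2 and Kitl rose by 0.26 and 0.19, and Rasgrf2, an exchange factor of layer 2 and 3 neurons, fell, with a log2 fold change of -0.22. Cux2, the standard marker of upper layers, had 144, 149, 104 and 145 CPM in cKO cortex and 130.3, 139, 134 and 147 CPM in control cortex (limma adjusted p = 0.913). Of 24 deep-layer genes, 1 rose and 3 fell. Ntsr1 (chromosome 2, 180499976 to 180544980, plus strand), the neurotensin receptor gene of corticothalamic layer 6 neurons, had 51.5, 48.03, 38.96 and 44.2 CPM in cKO cortex and 28.8, 28.1, 27.9 and 25.04 CPM in control cortex (log2 fold change 0.71, SE 0.09). Rprm, a cell cycle inhibitor gene, fell to 15.7 ± 2.05 CPM in cKO cortex, against 26.2 ± 2.97 CPM in control cortex (SD, n = 4 each). Hs3st4, a heparan sulfate enzyme gene of layer 6, and Fezf2, the selector gene of subcortical projection neurons, fell as well, with log2 fold changes of -0.56 and -0.35. Subplate genes numbered 11, of which 2 rose and 1 fell. Cplx3, a complexin gene, had 4.04, 4.703, 3.74 and 3.96 CPM in cKO cortex and 8.58, 8.74, 8.1001 and 8.16 CPM in control cortex, whereas Pde1a rose to 259 ± 27.4 CPM in cKO cortex, against 187 ± 25.5 CPM in control cortex (SD, n = 4 each). Moxd1 rose by 0.52. The calls of Kitl, Lhx2, Rasgrf2, Fezf2 and Moxd1 were lost when 1 library or another was left out, with adjusted p up to 0.149, 0.158, 0.0520, 0.156 and 0.0939. The number of upper-layer genes called higher was 2 when any of control libraries 45, 46 and 47 or cKO libraries 42 and 48 was left out.

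Genes of progenitors and newly born neurons had a median log2 fold change of 0.15 over 17 tested members, of which 2 (11.8%) rose and 0 fell, beside 1.67% higher among all tested genes. Sox11, a transcription factor gene of immature neurons, had 548, 517, 503 and 606 CPM in cKO cortex and 437, 346, 385 and 459.9 CPM in control cortex. Tnc, the matrix glycoprotein gene tenascin C of radial glia, had 277, 279, 296 and 301 CPM in cKO cortex and 223, 224, 210.4 and 219.9 CPM in control cortex. Each cKO library thus lay above each control library for both. Pax6, the radial glia regulator, showed the same separation at 17.4 ± 2.53 and 12.6 ± 1.28 CPM (cKO and control, SD, n = 4 each) but missed the threshold (limma adjusted p = 0.0543). Id2, an inhibitor of neuronal bHLH factors and a gene of upper-layer and layer 5 neurons, was chosen after its values were seen. It rose to 314 ± 25.97 CPM in cKO cortex, against 204 ± 23.9 CPM in control cortex (SD, n = 4 each), by 0.63 on the log2 scale (limma adjusted p = 0.000259).

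Among 35 tested nuclear receptor genes, 6 (17.1%) passed, beside 3.72% of all tested genes, and 5 fell and 1 rose. After Rorb and Rora, the largest drop was in Esrrg (chromosome 1, 187608791 to 188214885, plus strand), an orphan receptor of oxidative metabolism. It had 34.6, 35.2, 33.7 and 32.8 CPM in cKO cortex and 69.7, 58.4, 55.7 and 59.6 CPM in control cortex, a log2 fold change of -0.81 (SE 0.07, limma adjusted p = 1.31e-05). Every cKO value was below 36 CPM and every control value above 55 CPM. Pgr, the progesterone receptor gene, had 31.04, 32.8, 35.5 and 32.97 CPM in cKO cortex and 50.9, 45.4, 46.7 and 47.8 CPM in control cortex. Nr1d2, a circadian repressor gene, fell, with a log2 fold change of -0.26, and the mineralocorticoid receptor gene Nr3c2 rose by 0.33. The call of Nr1d2 was lost without control library 45 or 46 (adjusted p up to 0.0655). Of 19 tested forkhead genes only Foxp1 and Foxo1 passed, both lower. Foxo1 (log2 fold change -0.31) lost its call when any of 7 single libraries was left out (adjusted p up to 0.142). The paralog Foxp2 had 102, 84.8, 72.1 and 90.6 CPM in cKO cortex and 122, 80.3, 72.4 and 80.2 CPM in control cortex, where control library 43 was the highest of the 8. Foxp4 had 18.1, 18.9, 14.97 and 17.9 CPM in cKO cortex and 14.2, 16.4, 17.3 and 16.1 CPM in control cortex, with overlapping groups. Among other transcription factors of the 30 genes with the largest separated changes, Glis3, a zinc finger factor of the Gli-like family, rose (chromosome 19, 28258851 to 28680077, minus strand). It had 61.6, 72.1, 66.6 and 64.2 CPM in cKO cortex and 39.1, 35.1, 40.5 and 35.7 CPM in control cortex (log2 fold change 0.80, SE 0.07, limma adjusted p = 1.18e-05). Vgll3, a cofactor of TEAD factors, fell to 1.83 ± 0.736 CPM in cKO cortex, against 5.32 ± 1.101 CPM in control cortex (SD, n = 4 each). The imprinted zinc finger gene Plagl1, chosen after its values were seen, had 80.01, 82.6, 81.8 and 85.3 CPM in cKO cortex and 47.1, 52.5, 49.5 and 46.5 CPM in control cortex (limma adjusted p = 4.25e-06). The 4 cKO libraries of Plagl1 lay within 6 CPM of each other. A second imprinted gene, Peg10, which derives from a retrotransposon, rose to 49.9 ± 4.25 CPM in cKO cortex, against 31.9 ± 4.196 CPM in control cortex (SD, n = 4 each).

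The receptors of peptide hormones held the largest separated changes in both directions. Mc4r (chromosome 18, 66857704 to 66860506, minus strand), the melanocortin receptor gene best known for appetite control in the hypothalamus, had 11.2, 11.1, 10.2 and 13.3 CPM in cKO cortex and 3.16, 3.07, 2.51 and 3.32 CPM in control cortex (log2 fold change 1.63, SE 0.12, limma adjusted p = 3.66e-06). Rxfp2 (chromosome 5, 150018675 to 150082184, plus strand), the receptor gene of insulin-like peptide 3, had 1.63, 2.77, 1.95 and 1.83 CPM in cKO cortex and 9.49, 8.403, 10.4 and 9.82 CPM in control cortex (log2 fold change -1.80, SE 0.14, limma adjusted p = 3.97e-06). Both genes are expressed at a low level, and separated cKO and control values were a condition for naming them. Of 44 tested genes of this class, 6 rose and 2 fell, together 18.2% beside 3.72% of all tested genes. Oxtr, the oxytocin receptor gene, had 16.2, 18.6, 18.1 and 15.5 CPM in cKO cortex and 8.99, 13.7, 12.1 and 9.68 CPM in control cortex. Npr3, Npy1r and Prokr2, receptors of natriuretic peptides, neuropeptide Y and prokineticins, rose by 0.38, 0.38 and 0.36. Rxfp1, the relaxin receptor gene, fell beside Rxfp2, with a log2 fold change of -0.50. Glp2r, the receptor gene of glucagon-like peptide 2, is on the rule's list of large changes but not in this class list. It fell to 3.102 ± 1.17 CPM in cKO cortex, against 6.83 ± 1.28 CPM in control cortex (SD, n = 4 each), in a gene body that Gas7 and Rcvrn overlap on the opposite strand. Of 25 tested neuropeptide genes, 2 passed (8%). Adcyap1 (PACAP) rose to 31.8 ± 1.82 CPM in cKO cortex, against 21.9 ± 2.13 CPM in control cortex (SD, n = 4 each). Npy rose by 0.39, and none fell. Npr3, Npy1r, Prokr2, Rxfp1 and Npy lost their calls when 1 library or another was left out (adjusted p up to 0.0542, 0.0896, 0.137, 0.0542 and 0.153), and in 1 fit over all 16 libraries 2 receptor genes of this class were called higher.

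Receptors of small transmitters changed subunit by subunit, and the share that passed was 21.7% for glutamate, 12.5% for GABA and glycine, and 11.4% for monoamine, acetylcholine and purine receptors, beside 3.72% of all tested genes. Glra3 (chromosome 8, 55940460 to 56130070, plus strand), a glycine receptor subunit gene, had 73.4, 78.9, 107 and 80.4 CPM in cKO cortex and 32.1, 36.6, 31.1 and 28.7 CPM in control cortex (log2 fold change 1.36, SE 0.10, limma adjusted p = 3.66e-06). The lowest cKO library was thus at about 73 CPM and the highest control library at about 37 CPM. The GABA receptor gene Gabrg3 fell, with 159, 168, 166 and 166 CPM in cKO cortex and 207, 206, 212 and 196 CPM in control cortex, and these 2 were the genes that passed among 16 tested for GABA and glycine receptors. Of 23 tested glutamate receptor genes, 2 rose and 3 fell. Gria1, an AMPA receptor subunit gene and the most abundant of the separated higher genes, had 845, 843, 953 and 891 CPM in cKO cortex and 744, 773, 770.2 and 679 CPM in control cortex. Grm2, a presynaptic receptor gene that lowers cyclic AMP, moved the other way, with 8.09, 11.6, 10.1 and 12.3 CPM in cKO cortex and 15.7, 17.2, 19.8 and 17.6 CPM in control cortex. Grin2a, the NMDA receptor subunit gene that rises during postnatal maturation, fell to 179.6 ± 13.4 CPM in cKO cortex, against 223 ± 18.9 CPM in control cortex (SD, n = 4 each). Of 35 tested receptor genes for monoamines, acetylcholine and purines, 2 rose and 2 fell. Htr7, a serotonin receptor gene, had 28.4, 29.4, 28.96 and 28.5 CPM in cKO cortex and 16.7, 19.1, 19.8 and 19.9 CPM in control cortex, and Chrm2, a muscarinic receptor gene, had 20.1, 18.2, 19.03 and 16.6 CPM in cKO cortex and 30.6, 31.01, 29.9 and 25.5 CPM in control cortex. The cannabinoid receptor gene Cnr1 rose by 0.17 and the adenosine receptor gene Adora1 fell, with a log2 fold change of -0.22. When 1 library or another was left out, Gria1, Grin2a and Cnr1 lost their calls (adjusted p up to 0.0540, 0.0740 and 0.160), and the number of glutamate receptor genes called lower was 1 without control library 46, 5 without cKO library 42, 5 with edgeR and 6 with DESeq2.

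Ion channel genes that passed were nearly all lower. Over 3 lists of channel genes, 104 were tested, of which 15 (14.4%) fell and 1 rose, beside 2.05% lower among all tested genes. The median log2 fold changes were 0.00 for voltage-gated potassium channels (-0.03 after scaling by medians of ratios), -0.09 for other potassium channels and -0.03 for sodium, calcium and HCN channels. Kcnh5 (chromosome 12, 74897220 to 75177332, minus strand), an ether-a-go-go potassium channel gene, had 35.7, 37.7, 22.9 and 28.5 CPM in cKO cortex and 64.2, 69.1, 61.6 and 61.7 CPM in control cortex (log2 fold change -1.04, SE 0.12, limma adjusted p = 0.000131). Of the M-current genes, Kcnq3 had 625, 629, 698 and 663 CPM in cKO cortex and 808, 797, 791 and 765 CPM in control cortex. Kcnq5 had 348, 391, 331 and 358 CPM in cKO cortex and 464, 441, 454 and 420.4 CPM in control cortex. Kcnh7 and Kcnh1 fell, with log2 fold changes of -0.42 and -0.27. Of 36 other potassium channel genes, 5 fell. Kcnt2, a sodium-activated channel gene, fell to 208 ± 15.9 CPM in cKO cortex, against 280.5 ± 2.598 CPM in control cortex (SD, n = 4 each). The inward rectifier genes Kcnj3, Kcnj9 and Kcnj10 fell (log2 fold changes -0.40, -0.48 and -0.39), the first pair encoding G-protein-gated subunits and Kcnj10 the glial channel Kir4.1. Kcnj6, another G-protein-gated subunit gene, had 103 ± 4.86 CPM in cKO cortex and 109.7 ± 10.2 CPM in control cortex (SD, n = 4 each, limma adjusted p = 0.633). Kcnmb2 fell, with a log2 fold change of -0.33. In the list of sodium, calcium and HCN channels, lower genes on the log2 scale included the calcium channel genes Cacnb4 (-0.28), Cacna1a (-0.31) and Cacna1g (-0.37), and the sodium channel gene Scn8a (-0.20). The 1 channel gene that rose was Cacng4, an auxiliary subunit that also binds AMPA receptors, with 274, 260.5, 236 and 263 CPM in cKO cortex and 218, 197, 198 and 219.6 CPM in control cortex. Outside the lists, Trpa1, an irritant-gated cation channel gene chosen after its values were seen, had 12.1, 12.8, 12.8 and 12.9 CPM in cKO cortex and 23.8, 24.2, 21.7 and 25.2 CPM in control cortex. Kcnh7, Kcnh1, Kcnmb2, Cacna1a, Cacna1g and Scn8a lost their calls when 1 library or another was left out (adjusted p up to 0.101, 0.124, 0.106, 0.0504, 0.132 and 0.0550). With the striatal marker level as a covariate, 3 instead of 5 voltage-gated potassium channel genes were called lower, and likewise 3 instead of 5 genes of the sodium, calcium and HCN list. That first number was also 3 without control library 43 or 46 or cKO library 41 or 48, and the second was 3 without control library 45 and 2 without control library 46. In 1 fit over all 16 libraries the 3 lists had 2, 1 and 0 lower members.

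**Figure D3:**
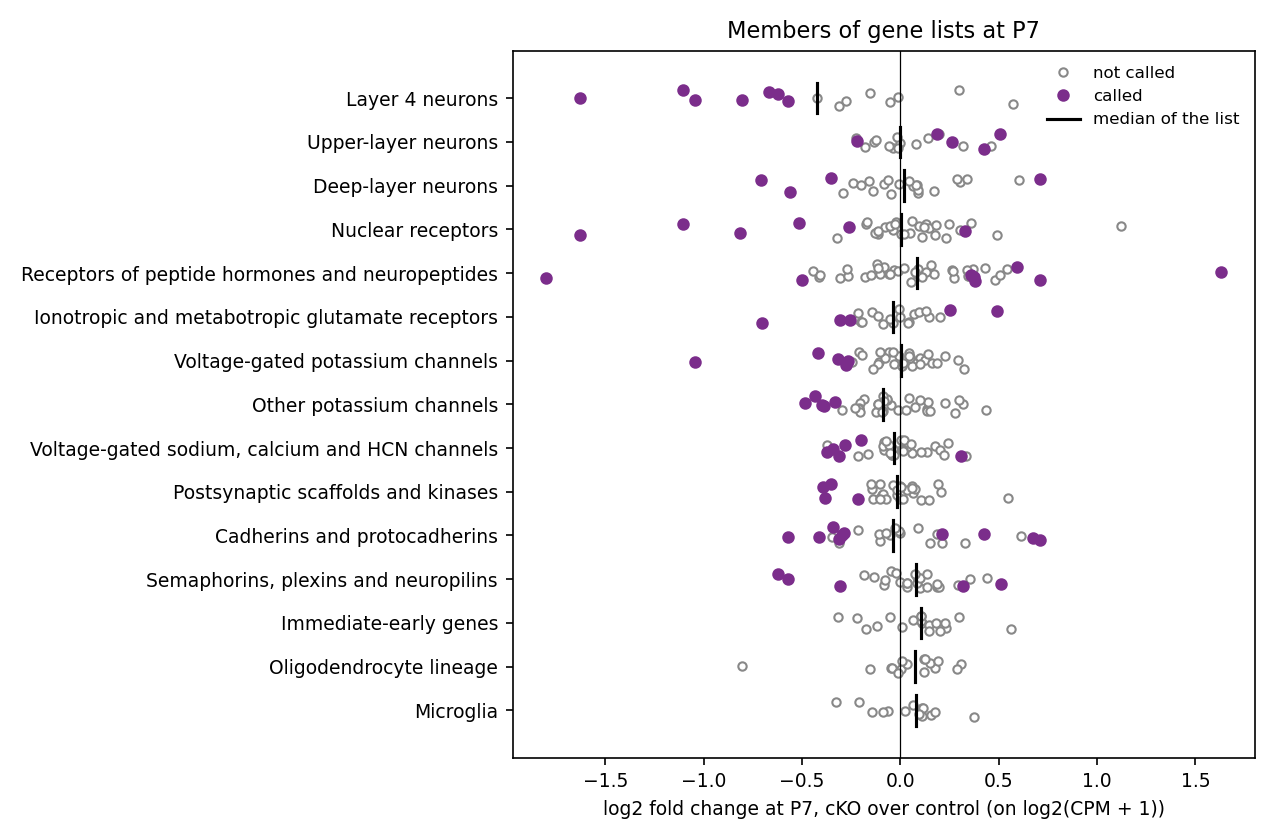
Log2 fold change at P7 (cKO over control, horizontal axis) of the tested members of 15 gene lists, filled where the gene passed and open where it did not, with a black line at the list's median. Called layer 4 genes all lie left of 0, channel lists have their filled points mostly left of 0 with medians near 0, and no immediate-early, oligodendrocyte or microglial gene passed.

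Abundant synaptic genes that passed changed by small amounts. Among vesicle release genes 11.1% passed and among postsynaptic scaffold and kinase genes 13.3%, beside 3.72% of all tested genes. Snap25, a membrane fusion gene of vesicle release, had 1056, 1090.4, 1196 and 1248 CPM in cKO cortex and 1373, 1418, 1424 and 1431 CPM in control cortex. Of 45 vesicle release genes, 3 fell (5 without cKO library 44 and 7 with DESeq2) and 2 rose. Unc13b, a vesicle priming gene, had 155, 158, 156 and 152 CPM in cKO cortex and 187, 201, 188 and 184 CPM in control cortex, and Cplx3 was described above. Doc2b, a calcium sensor of spontaneous release, rose to 106 ± 8.87 CPM in cKO cortex, against 77.9 ± 3.21 CPM in control cortex (SD, n = 4 each). Syt17 (chromosome 7, 118380717 to 118448222, minus strand), a relative of the synaptotagmins, had 34.95, 31.1, 36.03 and 33.6 CPM in cKO cortex and 15.8, 22.1, 19.4 and 13.8 CPM in control cortex (log2 fold change 0.92, SE 0.12). Of 30 postsynaptic scaffold and kinase genes, 4 fell and 0 rose. Camk2a, the kinase gene of synaptic plasticity, had 250.004, 257, 282 and 223 CPM in cKO cortex and 306, 349.8, 353 and 313 CPM in control cortex. Lower as well were the scaffold gene Dlgap2 (-0.39 on the log2 scale) and the protein kinase C gene Prkcb (-0.22). Syndig1, which regulates AMPA receptors at synapses, fell to 19.1 ± 5.7997 CPM in cKO cortex, against 35.8 ± 2.41 CPM in control cortex (SD, n = 4 each). C1ql3, a secreted C1q-like synaptic protein gene, rose to 39.95 ± 8.52 CPM in cKO cortex, against 22.2 ± 4.32 CPM in control cortex (SD, n = 4 each). Slc30a3, the transporter gene that loads zinc into glutamatergic vesicles, had 2.87, 2.35, 3.74 and 2.23 CPM in cKO cortex and 3.83, 8.27, 8.59 and 5.88 CPM in control cortex. The call of Slc30a3 was lost without control library 45 or 46 (adjusted p up to 0.0608). In 1 fit over all 16 libraries 0 postsynaptic genes were called by limma. Cadps2 and Sorcs1, a priming factor gene and a sorting receptor gene chosen after their values were seen, fell. Sorcs1 (chromosome 19, 50143299 to 50678646, minus strand) had 138, 152, 147 and 118 CPM in cKO cortex and 275, 258, 247 and 239.8 CPM in control cortex (log2 fold change -0.88, SE 0.07, limma adjusted p = 4.69e-06).

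The neurofilament genes Nefl, Nefm and Nefh, which encode the axonal intermediate filaments that accumulate as large projection neurons mature, fell. They belong to no list used here, and Nefl and Nefh were chosen after their values were seen. Nefm (chromosome 14, 68082590 to 68124846, minus strand) had 64.8, 92.3, 91.1 and 96.9 CPM in cKO cortex and 142, 153, 167 and 164 CPM in control cortex. Nefl had 118, 143, 172 and 176 CPM in cKO cortex and 209.96, 220.2, 229 and 242 CPM in control cortex, and Nefh had 9.98, 10.6, 10.6 and 12.4 CPM in cKO cortex and 15.5, 19.5, 19.6 and 15.8 CPM in control cortex. No cKO library reached the lowest control library for any of the 3, and the log2 fold changes were -0.87, -0.58 and -0.64. Ina, which encodes the related filament protein α-internexin, did not pass, with 327, 348, 367 and 379 CPM in cKO cortex and 349.5, 339.8, 367 and 391 CPM in control cortex (limma adjusted p = 0.893). Nefl and Nefm lie on opposite strands and share 31.3% and 18.1% of their 75-base stretches, so reads of that part may be divided uncertainly between them. The sources used here do not state whether the counting used the strand.

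Adhesion genes changed in both directions. Of 26 tested cadherin and protocadherin genes, 10 (38.5%) passed, 4 higher and 6 lower, beside 3.72% of all tested genes. Pcdh8, an activity-regulated protocadherin gene, had 23.6, 26.4, 24.6 and 23.7 CPM in cKO cortex and 16.5, 12.98, 13.2 and 16.3 CPM in control cortex. Cdh12 had 81.6, 93.9, 98.8 and 110.5 CPM in cKO cortex and 143, 138, 154 and 136 CPM in control cortex, and Pcdh9, one of the most abundant lower genes, had 884 ± 95.8 CPM in cKO cortex and 1172 ± 52.8 CPM in control cortex (SD, n = 4 each). Cdh4 and Pcdh17 rose beside Cdh13 and Pcdh8, and Cdh8, Cdh9, Cdh18 and Pcdh7 fell by 0.29 to 0.34 on the log2 scale. Itgb3 (chromosome 11, 104608000 to 104670476, plus strand), the integrin β3 gene, had 4.83, 4.79, 3.904 and 3.96 CPM in cKO cortex and 10.6, 10.8, 11.2 and 9.06 CPM in control cortex (log2 fold change -1.09, SE 0.12). Its partner Itgav did not pass, with 70.6 ± 6.82 CPM in cKO cortex and 79.5 ± 3.92 CPM in control cortex (SD, n = 4 each). Of 20 integrin genes, 3 (15%) passed. Itgb4 fell as well, to 1.56 ± 0.306 CPM in cKO cortex, against 3.57 ± 0.855 CPM in control cortex (SD, n = 4 each), and Itgb8 rose by 0.20. Of 28 semaphorin, plexin and neuropilin genes, 2 rose and 3 fell (17.9%). Sema3a (chromosome 5, 13125414 to 13602565, plus strand), a secreted repellent of cortical axons, had 148, 144, 168 and 161 CPM in cKO cortex and 114, 110.5, 102 and 106 CPM in control cortex. Sema3c rose by 0.32, while Sema6d (-0.31) and Plxnd1 (-0.57) were lower on the log2 scale. Of 36 genes of ephrins, netrins, slits and their receptors, 3 (8.33%) passed. The ephrin genes Efnb2 (0.36) and Efnb3 (0.26) were higher on the log2 scale. Dcc, which encodes a receptor of netrins, fell to 156 ± 13.1 CPM in cKO cortex, against 218 ± 18.3 CPM in control cortex (SD, n = 4 each). Flrt3, an adhesion molecule of migrating and sorting neurons that was chosen after its values were seen, had 98.1, 98.6, 95.6 and 106 CPM in cKO cortex and 62.4, 54.99, 65.4 and 56.7 CPM in control cortex (log2 fold change 0.73, limma adjusted p = 1.21e-05). Flrt3 lies within Macrod2 on the opposite strand. Cdh4, Cdh9, Pcdh17, Itgb8, Sema3c and Efnb3 lost their calls when 1 library or another was left out (adjusted p up to 0.0859, 0.0638, 0.161, 0.171, 0.0837 and 0.0845). The number of cadherin genes called higher was 2 without control library 43 or 46, and 1 lower cadherin gene was called in 1 fit over all 16 libraries. In the list of ephrins and netrins, 5 genes were called lower without cKO library 44 and 2 without cKO library 48.

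Matrix and cell surface genes were among the widely separated ones. Vcan (chromosome 13, 89655312 to 89742509, minus strand), the large matrix proteoglycan versican, had 781, 665, 629 and 674 CPM in cKO cortex and 518, 422, 427 and 458 CPM in control cortex (log2 fold change 0.59, SE 0.07). Spp1, the secreted phosphoprotein osteopontin, had 32.9, 57.5, 40.02 and 36.9 CPM in cKO cortex and 21.99, 17.8, 17.7 and 22.6 CPM in control cortex, and Tnn, a tenascin, had 4.499, 5.96, 5.29 and 4.87 CPM in cKO cortex and 1.83, 3.07, 2.43 and 2.698 CPM in control cortex. Smoc2, a secreted calcium-binding matrix protein gene, rose to 5.89 ± 2.04 CPM in cKO cortex, against 2.72 ± 0.742 CPM in control cortex (SD, n = 4 each). It lost the call when any of 4 single libraries was left out (adjusted p up to 0.0764). Col4a4, Col8a1, Hs3st2, Cd44 and Scube1 were chosen after their values were seen, and all fell. The basement membrane collagen gene Col4a4 had 4.43, 5.12, 4.15 and 4.97 CPM in cKO cortex and 9.66, 8.33, 8.59 and 9.41 CPM in control cortex, and Col8a1 had 16.5, 18.1, 13.1 and 15.6 CPM in cKO cortex and 29.9, 27.4, 24.2 and 32.7 CPM in control cortex. Of the heparan sulfate sulfotransferase genes, Hs3st2 was lower at -0.84 on the log2 scale, and Hs6st3 (-0.64) and Hs3st4 (-0.56) were lower too. The other tested genes with Hs2st, Hs3st or Hs6st symbols did not pass, with log2 fold changes of -0.25 for Hs3st5, -0.09 for Hs2st1, -0.03 for Hs6st1, 0.08 for Hs3st1, 0.31 for Hs3st3a1 and 0.41 for Hs3st3b1. Hs3st2 had 43.5, 34.7, 35.5 and 36.1 CPM in cKO cortex and 64.05, 74.3, 68.4 and 63.99 CPM in control cortex. Cd44, the hyaluronan receptor gene, fell to 16.2 ± 3.78 CPM in cKO cortex, against 29.5 ± 2.21 CPM in control cortex (SD, n = 4 each), and the secreted factor gene Scube1 to 25.02 ± 1.704 CPM, against 42.97 ± 3.88 CPM in control cortex (SD, n = 4 each). Cell adhesion molecules among the most abundant called genes moved both ways. Cadm1 rose, with 745, 792, 979.6 and 865 CPM in cKO cortex and 627, 667, 710.3 and 715 CPM in control cortex, whereas Cadm2 fell, with 1651, 1741, 1704 and 1748 CPM in cKO cortex and 2209.6, 2058, 2136 and 2206 CPM in control cortex. The receptor phosphatase gene Ptprd, the most abundant separated lower gene, had 1744, 2151, 2129 and 1969.9 CPM in cKO cortex and 2454, 2535, 2660.2 and 2448 CPM in control cortex. Ptpru, another receptor phosphatase gene, had 34.7, 42.1, 32.3 and 32.6 CPM in cKO cortex and 17.4, 22.4, 22.3 and 18.3 CPM in control cortex. Ntm, a GPI-anchored neurotrimin, fell, with a log2 fold change of -0.23. Cadm1 and Ntm lost their calls when 1 library or another was left out (adjusted p up to 0.0918 and 0.0809).

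Several secreted signals rose. Fgf10 (chromosome 13, 118669791 to 118792115, plus strand), a growth factor of early cortical progenitors, had 29.4, 29.9, 32.6 and 26.6 CPM in cKO cortex and 15.2, 17.7, 17.3 and 18.7 CPM in control cortex (log2 fold change 0.75, SE 0.09, limma adjusted p = 0.000188). Of the 30 genes with the largest separated changes, 22 had a promoter window in the RefSeq table of GRCm38.p6, and Fgf10 alone held the forkhead motif TGTTTAC (either strand, from 250 bases before to 50 after the start). Its window, chr13:118714449-118714748 on the plus strand, is shown because it is the only one with the motif among the windows of these 22 genes. The motif is in capitals, 11 bases before the start. This RefSeq start lies inside the GENCODE gene body given above and is not the first base of that body.
Fgf10: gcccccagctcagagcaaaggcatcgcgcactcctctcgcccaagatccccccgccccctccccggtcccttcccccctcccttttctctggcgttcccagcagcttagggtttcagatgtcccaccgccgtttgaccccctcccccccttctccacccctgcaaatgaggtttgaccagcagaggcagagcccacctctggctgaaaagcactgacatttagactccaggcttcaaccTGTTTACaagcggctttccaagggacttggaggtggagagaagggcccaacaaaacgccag
Among all 32851 RefSeq windows, 3.65% held the motif. Counted by gene, 311 of the 10049 tested genes with a window (3.09%) held it in any of their windows. Windows were found for only 74.3% of higher and 72.6% of lower genes, so their shares were not compared. A match describes letters in the window and not binding. Of 44 tested genes of activin, BMP and TGF-β signalling, 4 rose and 1 fell, together 11.4% beside 3.72% of all tested genes. Fst, the activin antagonist follistatin, had 7.69, 5.79, 9.44 and 9.84 CPM in cKO cortex and 3.25, 3.89, 3.89 and 5.603 CPM in control cortex. Smad1, a transducer of BMP signals, rose to 71.9 ± 1.57 CPM in cKO cortex, against 56.2 ± 2.35 CPM in control cortex (SD, n = 4 each). Smoc2 rose as well, and Fstl4 fell, with a log2 fold change of -0.44 that was lost without control library 45 or 46 (adjusted p up to 0.0685). Sfrp2, a secreted Wnt antagonist gene, rose to 11.2 ± 1.17 CPM in cKO cortex, against 6.71 ± 1.13 CPM in control cortex, and Nov (CCN3), a matricellular gene, to 291 ± 38.6 CPM, against 188 ± 28.9 CPM in control cortex (SD, n = 4 each). Both were chosen after their values were seen. Of 24 tested genes of retinoic acid and thyroid hormone handling, 2 (8.33%) passed. The retinaldehyde dehydrogenase gene Aldh1a3 rose, with 13.4, 12.01, 10.01 and 15.2 CPM in cKO cortex and 7.16, 6.35, 8.02 and 6.78 CPM in control cortex. Klf9, a thyroid hormone-induced factor, fell, with 170.4, 181, 194 and 241 CPM in cKO cortex and 265, 234, 245 and 293 CPM in control cortex, where cKO library 48 overlapped the controls. The call of Klf9 was lost when any of 4 single libraries was left out (adjusted p up to 0.0872).

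Inside the cell, several signalling genes at low levels changed by large factors. Rgs9bp, which anchors the G-protein regulator Rgs9 at the membrane in the retina, had 1.17, 1.18, 2.03 and 1.42 CPM in cKO cortex and 4.997, 4.65, 6.97 and 8.79 CPM in control cortex. Rgs9 itself is a striatal gene and did not pass, with control library 43 the highest of the 8 at 141 CPM. Of 21 genes of RGS proteins and their anchors Rgs20 rose by 0.37, a call lost without control library 46 (adjusted p = 0.0505). Dock5, an activator of Rac, had 10.2, 10.2, 8.54 and 8.42 CPM in cKO cortex and 19.9, 22.3, 22.9 and 20.2 CPM in control cortex. The phospholipase genes Plb1 and Pld5 fell, to 1.91 ± 0.9798 and 8.45 ± 2.18 CPM in cKO cortex, against 6.31 ± 0.667 and 19.5 ± 5.66 CPM in control cortex (SD, n = 4 each). Stac, an adaptor of L-type calcium channels, had 23.7, 25.4, 24.6 and 18.7 CPM in cKO cortex and 10.6, 14.96, 11.9 and 10.1 CPM in control cortex. Hpgd, which inactivates prostaglandins, had 23.2, 34.2, 21.8 and 19.98 CPM in cKO cortex and 12.3, 11.1, 9.96 and 9.89 CPM in control cortex. Rgs9bp, Dock5, Plb1, Pld5, Stac and Hpgd were named by a rule that asked for separated cKO and control values, so their separation is no further result. The axonemal dynein gene Dnah8 and the predicted gene Gm765 rose, by 0.92 and 1.11, and the secreted peptide gene Ostn fell, with a log2 fold change of -1.01 at below 2 CPM in all libraries. Ostn could not be tested once any control library was left out. It met the filter only through the control libraries, where it is high, so its fall is not independent of the filter. DESeq2 gave it no adjusted p. Atp2b4, a plasma membrane calcium pump gene chosen after its values were seen, had 515, 529.5, 545 and 519 CPM in cKO cortex and 331, 394, 375 and 337 CPM in control cortex (log2 fold change 0.55, limma adjusted p = 3.4e-05). Akap9, an anchoring protein of kinases at the Golgi and centrosome, rose with 679 ± 30.9 CPM in cKO cortex and 531 ± 13.3 CPM in control cortex, and the ubiquitin ligase gene March1 with 572 ± 37.7 and 471 ± 30.6 CPM (cKO and control, SD, n = 4 each). Of the other most abundant called genes, Enc1, Ppfia2 and Sobp rose by 0.23, 0.19 and 0.24, and Strbp fell, with a log2 fold change of -0.19. These 4 calls were lost when 1 library or another was left out (adjusted p up to 0.154, 0.0896, 0.0941 and 0.0732). Impg2, a proteoglycan gene known from the retina, had the largest positive log2 fold change of all, 1.80, and was chosen after its values were seen. It had 8.93, 21.2, 27.3 and 12.3 CPM in cKO cortex and 2.998, 2.73, 9.801 and 2.49 CPM in control cortex, so control library 46 lay above cKO library 41. Lists that follow neuronal and growth factor activity had called shares near the 3.72% of all tested genes. Of 19 tested immediate-early genes 0 passed by limma, edgeR or DESeq2. At an unadjusted p under 0.05 by limma there were 3, beside 1831 of all 12828 tested genes. Of 19 feedback genes of the ERK pathway, 1 (5.26%) passed. This was Dusp14, which rose by 0.58, a call lost when any of 4 libraries was left out (adjusted p up to 0.0780).

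Markers of other cell types are given list by list, and their adjusted calls are to be read against the 3.72% of all tested genes. Counts at an unadjusted p under 0.05 are to be read against 1831 of all 12828 tested genes. Of 16 oligodendrocyte, 14 microglial, 15 vessel, 2 blood and 6 hippocampal genes that could be tested, 0 passed by limma, edgeR or DESeq2, with 1, 0, 1, 1 and 2 of them at an unadjusted p under 0.05 by limma. Of 17 astrocyte genes, 12 had a positive log2 fold change, with a median of 0.09 over the list against 0.03 over all tested genes. At an unadjusted p under 0.05 there were 7 of the 17. The groups did not overlap in 6, beside 1139 (8.88%) of all tested genes. After adjustment 1 (5.88%) passed, Slc1a2, the glial glutamate transporter, with 1589, 1803, 1951 and 1706 CPM in cKO cortex and 2036, 2267, 2192 and 1985 CPM in control cortex. After quantile normalization 1 astrocyte gene was called higher and 0 lower, and with DESeq2 1 higher and 2 lower. The call of Slc1a2 was also lost when any of 4 single libraries was left out (adjusted p up to 0.0992). Of 9 meningeal and choroid plexus genes, 1 (11.1%) passed, Lum, which fell to 2.98 ± 0.544 CPM in cKO cortex, against 5.78 ± 1.58 CPM in control cortex (SD, n = 4 each). Of 23 tested interneuron genes, 3 (13%) passed. Calb2, the calretinin gene, rose to 16.8, 15.1, 29.3 and 17.95 CPM in cKO cortex, against 10.3, 14.5, 10.8 and 9.62 CPM in control cortex. Npy rose as well, and Satb1, a chromatin organiser that many cortical neurons also express, fell, with a log2 fold change of -0.26. The calls of Lum, Calb2 and Satb1 were each lost when 1 library or another was left out (adjusted p up to 0.0924, 0.0979 and 0.0991). Of 10 tested thalamic genes, 1 (10%) passed, and this was Calb2, which is on the interneuron and the thalamic list. Thalamic markers summed to 290 to 352 CPM in cKO and 259 to 286 CPM in control cortex, and within that list the vesicular glutamate transporter gene Slc17a6 had 141, 159.6, 197 and 189.99 CPM in cKO cortex and 134, 138, 138 and 142 CPM in control cortex (limma adjusted p = 0.0628). Subplate markers summed to 483 to 621 CPM in cKO cortex and 418 to 509 CPM in control cortex. The part of striatal, thalamic or subplate tissue in the gene changes was not tested beyond the covariate fit and the fits without single libraries.

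**Figure D4:**
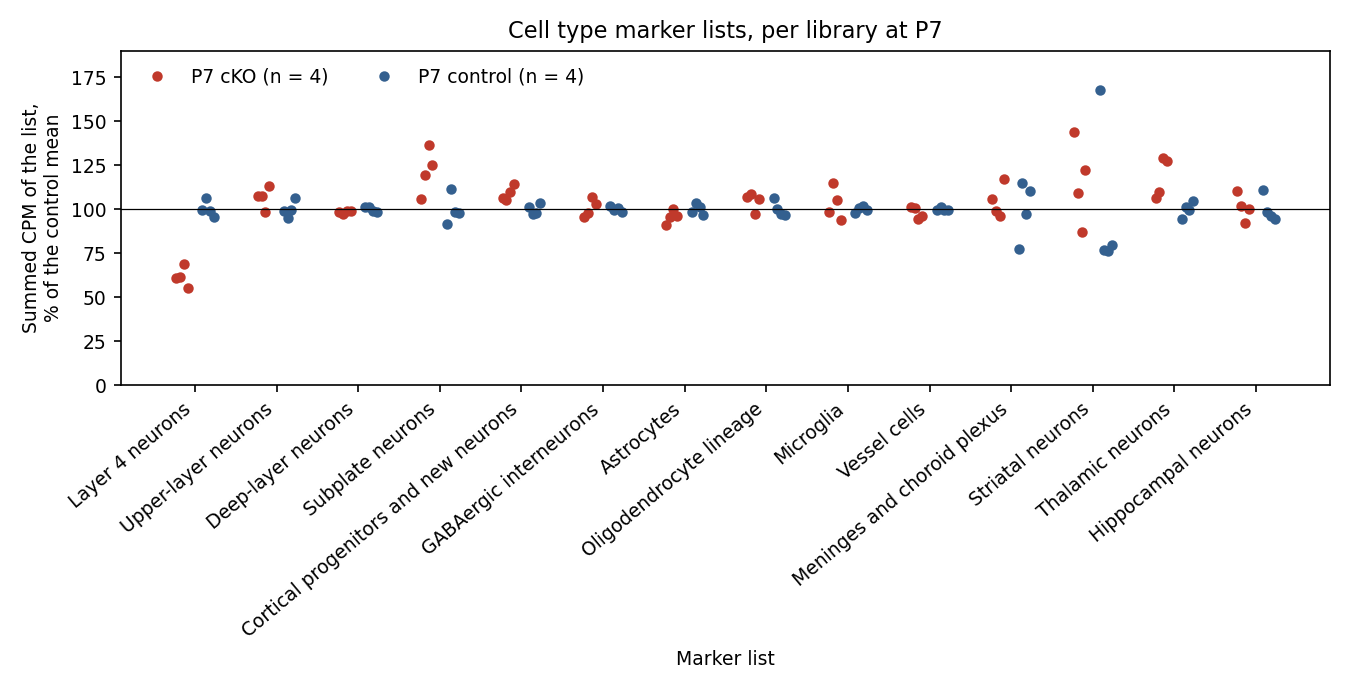
Summed CPM of each cell type marker list per P7 library, as a percentage of the mean of the 4 controls, cKO in red and control in blue. Layer 4 sums are lower in every cKO library (669 to 834 CPM) than in any control library (1154 to 1285 CPM). Striatal sums run from 490 to 809 CPM in cKO libraries, with control library 43 at 942 CPM and the other controls at 428 to 447 CPM. The blood list, with 2 tested genes, is not drawn.

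The same deletion was profiled at birth, which gives a second value for each gene. Age here goes with the sequencer, read length and library protocol, with a BGI instrument for the P0 and an Illumina NextSeq for the P7 libraries, so that age and platform cannot be told apart in any difference between the effects. At P0, limma called 32 of 12580 genes (0.254%), with 23 (0.183%) higher and 9 (0.0715%) lower, a count that ran from 4 without cKO library 3 or 8 to 136 without control library 5. Of the 199 genes higher at P7 that were tested at P0, 132 (66.3%) had a positive P0 log2 fold change, with a median of 0.10 at P0 and 0.38 at P7. Of the 242 lower genes tested at P0, 161 (66.5%) had a negative P0 value, with a median of -0.14 at P0 and -0.37 at P7. Over all genes tested at P0 the median P0 log2 fold change was 0.01. Genes called at both ages numbered 14, which is 2.94% of the P7 calls and 43.8% of the P0 calls, and each had the same sign at both ages. The higher ones included Aldh1a3, Doc2b, Fgf10, Glis3, Hdac9, Lacc1, Met and Ntsr1. The lower ones, beside Foxp1 (log2 fold changes of -1.03 at P7 and -1.02 at P0), were Adamts20, Diaph3, Il1rap and Lifr. Met, the hepatocyte growth factor receptor gene, had log2 fold changes of 0.21 at P7 and 1.29 at P0, and its P7 call was lost when any of 7 single libraries was left out (adjusted p up to 0.124). Il1rap, a co-receptor of interleukin-1, had log2 fold changes of -0.70 at P7 and -1.11 at P0. Lifr lost its P7 call without control library 46 (adjusted p = 0.0550).

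The P7 effect minus the P0 effect passed in 101 of 13444 genes (0.751%), 41 (0.305%) with a positive and 60 (0.446%) with a negative difference. Rorb had a log2 fold change of -1.63 at P7 and -0.63 at P0, a difference of -0.99 (SE 0.18, limma adjusted p = 0.0132). Its level was 33.7 ± 7.23 CPM in P0 cKO and 52.4 ± 8.52 CPM in P0 control cortex (SD, n = 4 each). Rora had -1.10 at P7 and -0.40 at P0 (difference -0.70, limma adjusted p = 0.0294). Mc4r had 1.63 at P7 and 0.53 at P0 (difference 1.10, limma adjusted p = 0.0309). Its P0 means were 18.5 ± 1.87 CPM in cKO and 12.9 ± 3.96 CPM in control cortex (SD, n = 4 each). The 5 most negative called differences were those of Rxfp2 (-2.08), Gm19410 (-1.48), Plb1 (-1.46), Nefm (-1.32) and Hs6st3 (-1.32). The 5 most positive were those of Slc18a1 (1.51), a vesicular monoamine transporter gene, Ifi30 (1.38), a lysosomal reductase gene, Peg10 (1.17), Ikbke (1.17), a kinase gene of antiviral signalling, and Pmaip1 (1.17), which encodes the cell death protein Noxa. Slc18a1 was too low to be tested at P7, with 0.14 to 0.50 CPM in P7 control libraries, and Rxfp2 too low to be tested at P0. Each of these differences thus sets a tested age against an age at which the gene was hardly seen. Some genes had opposite signs at the ages. Nefm had -0.87 at P7 and 0.46 at P0, Hs6st3 -0.64 and 0.68, Sorcs1 -0.88 and 0.29, and Cadps2 -0.70 and 0.33, all as log2 fold changes with a called difference. In the other direction Plagl1 had 0.74 at P7 and -0.15 at P0, Peg10 0.63 and -0.54, Ptpru 0.79 and -0.37, and Sox11 0.42 and -0.20. For these 8 genes the P0 values did not pass. Nefm shares 18.1% of its stretches with Nefl, which was at 0 in all P0 libraries, and the part of this overlap in the difference of Nefm was not tested. For Glra3 (1.36 at P7 and 0.50 at P0) the difference did not pass (limma adjusted p = 0.122). The count of called differences rested on single libraries, from 45 without P0 cKO library 3 to 361 without P0 control library 5.

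**Figure D5:**
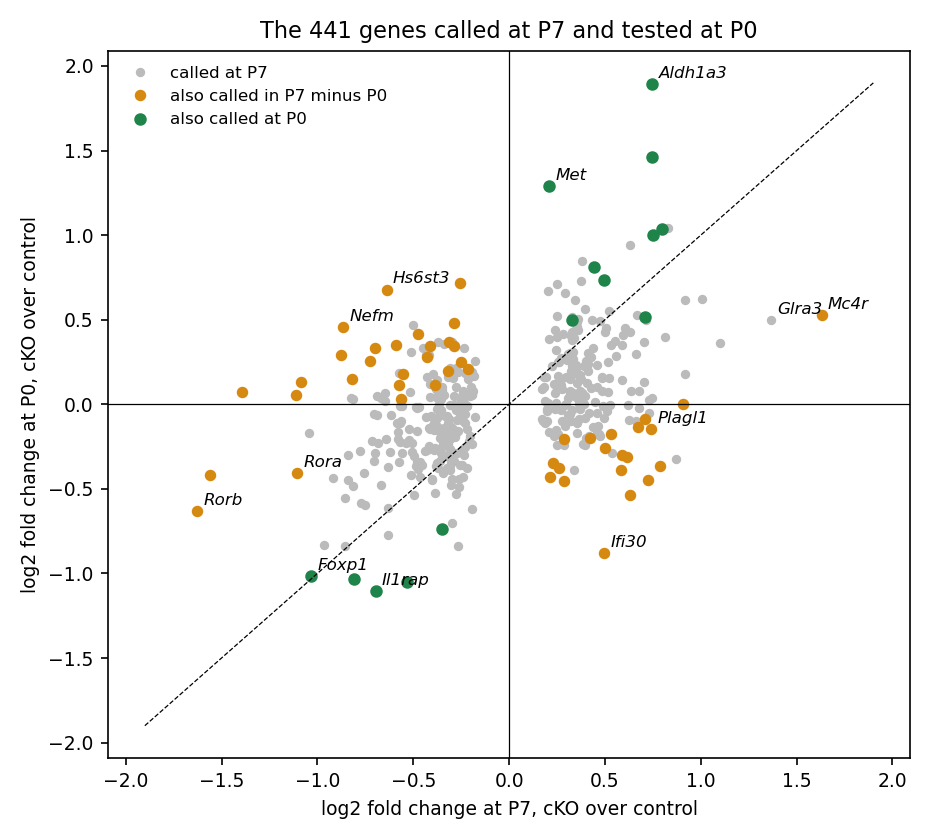
Log2 fold change at P0 (vertical axis) against that at P7 (horizontal axis), both cKO over control, for the 441 genes called at P7 and tested at P0, with the line of equal values dashed. Genes also called at P0 are green (Aldh1a3, green, also had a called difference between ages) and genes called in the difference alone are orange.

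Some genes could not be compared between the ages. Of 10390 genes with a mean above 5 CPM at P7, 142 had 0 CPM in every P0 library. Of these, 94.4% overlap a gene on the opposite strand, against 20.6% of the 10390. The reverse, above 5 CPM at P0 and 0 in all P7 libraries, was seen for 4 genes. Among the genes called at P7, Flrt3, Fndc9, Hsd11b1, Nefl, Nnat and Synm are such genes, all 6 overlapping a gene on the opposite strand. Their P0 values are therefore not read here, and the called differences between ages of Flrt3 and Hsd11b1 are set aside. Of the other genes described, Adora1, Akap9, Cdh12, Dnah8, Ina, Kcnh1, Kcnh7, Lacc1, Ppfia2, Rgs20, Slc18a1, Slc30a3, Strbp and Syndig1 overlap a gene of the table on the opposite strand, as do Glp2r and Hs3st3a1, and Cadps2, Hdac9 and Pld5 overlap one on the same strand. By GENCODE M21 transcripts, at least 5% of 75-base stretches were shared with an opposite-strand gene for C1ql3 (59.98%), Hs3st3a1 (31.6%), Kcnj3 (28.3%), Ppfia2 (21.5%), Pcdh7 (20.1%), Adora1 (15.98%), Cacnb4 (14.3%) and Ina (12.1%). Smaller opposite-strand shares, from 5.14% to 9.72%, were those of Foxo1, Grm2, Hs3st2, Hs6st1, Itgav, March1, Ostn, Pcdh8, Sfrp2, Stac and Syndig1. Same-strand shares of at least 5% were those of Grin2a (11.1%), Hs3st3a1 (8.82%), Spp1 (8.55%) and Hs3st3b1 (7.05%). Reads of all these genes may be divided uncertainly, and the part of the overlaps in their differences between ages was not tested.

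The genes that changed at P7 were long and well expressed compared with all tested genes. The median gene body, by GENCODE M21 on GRCm38, was 131 kb for lower genes and 67.5 kb for higher genes, against 28.7 kb for all tested genes. Of 524 tested genes longer than 300 kb, 76 (14.5%) fell and 24 (4.58%) rose. Of 2518 genes shorter than 10 kb, 15 (0.596%) fell and 33 (1.31%) rose. The shift with length differed between libraries. For genes over 300 kb, the median deviation from each gene's mean over the 8 libraries, on the log2 scale, was -0.077, 0.017, -0.0089 and -0.064 in cKO libraries and 0.017, 0.046, 0.059 and -0.021 in control libraries, so the groups overlapped, with cKO libraries 41 and 48 lowest. For genes under 10 kb it was 0.078, 0.082, -0.033 and -0.00012 in cKO libraries and -0.039, -0.013, -0.018 and -0.043 in control libraries, with cKO libraries 41 and 42 highest and cKO library 44 among the controls. The median mean level was 91.4 CPM for lower genes, 55.9 CPM for higher genes and 23.4 CPM for all tested genes, and a higher level makes a change easier to detect. These are descriptions of the called genes, and neither length nor level was tested apart from the other. The gene lists above were set beside all tested genes and not beside genes of like length or level.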

How the data were processed

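The authors deposited 1 table of CPM values for 20841 genes in 16 libraries, which held 1 gene of the sex chromosomes. The submitters' processing notes list STAR, HTSeq, edgeR and the builds mm10 and GRCm38. The sources used here give no versions, strand setting or filters. Every deposited CPM value came out as a whole read within 0.01 read, and these reads gave library totals and the count-based alternatives. The main test was limma 3.58.1 in R 4.3.3 (eBayes with trend) on log2(CPM + 1) over genes at 1 CPM or more in at least 4 libraries, with Benjamini-Hochberg adjustment over all tested genes, called under 0.05. The P7 effect minus the P0 effect was a contrast in 1 fit over all 16 libraries. Fold changes are on the log2(CPM + 1) scale and understate changes of low genes. Alternatives included edgeR 4.0.16 quasi-likelihood, DESeq2 1.42.0, other pseudocounts, filters and scalings, and leaving out each library, and the limma fit was tested on simulated data. The median standard error was 0.0961. The members, the 36 gene lists and the tests were chosen with earlier results of these data known. Genes were named by rule: Foxp1, the 15 largest separated changes and the 8 most abundant separated calls in each direction, the 5 largest differences between ages in each direction, and up to 4 members per list by p. Other called list members and further genes were chosen after their values were seen. Gene positions are from GENCODE M21 on GRCm38, matched by symbol (20374 genes) or older symbol (357), with 110 unmatched. Some genes of the lists are not reported here.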

Additional observations from a re-analysis of the deposited data

Results flagged for a closer look

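For the 185 genes described, 370 groups of 4 P7 libraries were looked at, and in 17 (4.59%) the highest or lowest library was set apart from the other 3 by Dixon's criterion, which chance alone meets in about 1 in 20. In cKO library 41, Cdh13 was high at 444 CPM, Hs3st2 high at 43.5 CPM, Itgb4 high at 2.02 CPM and Trpa1 low at 12.1 CPM, and in cKO library 44 Cux2 was low at 104 CPM. In control library 43, Foxo1 was high at 67.0 CPM, Foxp2 at 122 CPM, Rgs9 at 141 CPM and Slc18a1 at 0.4997 CPM, and Hsd11b1 was low at 6.996 CPM. In control library 45, Cdh8 was low at 303 CPM, Dnah8 low at 5.33 CPM, Pmaip1 low at 1.78 CPM and Scnn1a high at 2.39 CPM. Impg2 was high in control library 46 at 9.80 CPM and Hs3st3a1 at 1.46 CPM, and Pcdh7 was high in control library 47 at 698 CPM.

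The effect at P7 differed from the effect at P0, by limma's test of the difference in log2 fold change, for 38 of the genes described, of which those of Flrt3 and Hsd11b1 are not read because these genes are listed at 0 in all P0 libraries. Age and sequencing platform cannot be told apart in each of them. Negative differences, meaning a lower value at P7, were found for Rxfp2 (-2.08), Gm19410 (-1.48), Plb1 (-1.46), Nefm (-1.32), Hs6st3 (-1.32), Itgb3 (-1.22), Sorcs1 (-1.17), Dock5 (-1.16), Aldh1a3 (-1.14) and Rgs9bp (-1.14). Further negative ones were those of Cplx3 (-1.04), Cadps2 (-1.03), Rorb (-0.99), Col4a4 (-0.97), Ostn (-0.88), Susd5 (-0.84), Hsd11b1 (-0.80), Pcdh7 (-0.77), Rora (-0.70), Hs3st4 (-0.59) and Adora1 (-0.43). Positive differences were found for Slc18a1 (1.51), Ifi30 (1.38), Peg10 (1.17), Ikbke (1.17), Pmaip1 (1.17), Ptpru (1.15), Mc4r (1.10), Dusp14 (0.97), Rcn1 (0.92), Pax6 (0.91) and Stac (0.90). Smaller positive ones were those of Plagl1 (0.89), Sfrp2 (0.80), Pcdh8 (0.79), Flrt3 (0.73), Pcdh17 (0.64) and Sox11 (0.62). Slc18a1 was too low to be tested at P7, and Rxfp2, Cplx3, Ostn and Susd5 were too low to be tested at P0. Nefm and Pcdh7 share 18.1% and 20.1% of their stretches with a gene on the opposite strand, and the part of this in their differences was not tested. Of the 38 differences, 17 passed under every alternative run and 0 changed direction.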

How the results depend on the processing

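The count of 477 genes at P7 was 175 in 1 fit over all 16 libraries, where 170 were shared, and ranged from 281 to 496 when single libraries were left out. Under the remaining alternatives it lay between 325 (no filter) and 663 (adjusted p under 0.1), and Foxp1 passed in all, at -0.90 to -1.11 on the log2 scale without single libraries. Of the 165 called genes described, 82 passed under every alternative that tested them and 0 changed direction. The calls lost numbered 75 in the fit over 16 libraries, 40 without control library 46, 37 without a filter and 33 with the striatal covariate, which was chosen after seeing the data. The cause was not tested. Of 72 list counts, 20 stayed within 1.5 times under every alternative. The 101 differences between ages became 194 with array weights, 54 without a filter and 241 at an adjusted p under 0.1, and 45 to 361 without single libraries. Besides library 3, 47 to 66 were called without P7 control library 43, 45, 46 or 47 or P7 cKO library 41, 42 or 48, or P0 cKO library 4 (55), and 207 without P0 control library 1. The P0 count of 32 was 7 without a filter and 124 with array weights. Values that did not pass changed sign for Cux2 (0.013 with array weights and -0.087 to 0.084 without single libraries), Foxp2 (0.096 with array weights and -0.091 to 0.16 without single libraries), Ina (0.0018 with the striatal covariate and -0.058 to 0.012 without single libraries), Hs6st1 (-0.081 to 0.015 without single libraries) and Rgs9 (-0.066 with the striatal covariate). No paired analysis was possible because the groups share no replicate numbers. With 4 libraries a group, small changes of low genes could not be detected.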

Other observations

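Several well separated P7 changes belong to none of the gene groups above and were chosen after their values were seen. Osbpl3, an oxysterol-binding protein gene, had 35.3, 34.3, 32.5 and 34.6 CPM in cKO cortex and 63.96, 59.98, 60.9 and 65.9 CPM in control cortex (log2 fold change -0.86, limma adjusted p = 3.45e-06). Its log2 fold change at P0 was -0.84, with a difference between ages of -0.02 (limma adjusted p = 0.976). Pex5l, a gene of ion channel trafficking, had 97.4, 96.5, 104 and 91.5 CPM in cKO cortex and 155, 168, 154 and 152 CPM in control cortex (log2 fold change -0.68, limma adjusted p = 4.48e-06). No cKO library reached a control library for Pex5l. Lhfp, a tetraspan membrane protein gene, fell to 41.6 ± 3.55 CPM in cKO cortex, against 71.9 ± 2.41 CPM in control cortex, and Sgcz, a sarcoglycan gene, to 66.9 ± 5.06 CPM, against 121 ± 19.5 CPM in control cortex (SD, n = 4 each). Susd5, a sushi domain protein gene, had 7.43, 8.57, 6.26 and 7.81 CPM in cKO cortex and 14.2, 13.5, 15.8 and 16.3 CPM in control cortex. Among higher genes, Rcn1, a calcium-binding protein gene of the endoplasmic reticulum, had 76.4, 75.9, 71.7 and 72.6 CPM in cKO cortex and 51.2, 45.97, 49.5 and 45.8 CPM in control cortex. Mmp2, a matrix metalloprotease gene, rose to 4.92 ± 0.848 CPM in cKO cortex, against 2.52 ± 0.394 CPM in control cortex (SD, n = 4 each).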
